A study of Arabidopsis thaliana and Setaria viridis and Zea mays with 22 samples.

Results

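The endodermis of the Arabidopsis thaliana root tip was described here as the cells that the authors named 21_endodermis in their deposited annotation. These were 578 of 32790 cells and nuclei, or 1.76%, and they were chosen by that name alone, in every library. The name and cluster 21 of the authors' clustering held the same cells, with 0 cells of the name outside the cluster and 0 cells of another name inside it. Of the 578, 245 were among 17687 protoplasts, the naked cells left after the walls are digested away, and 333 were among 15103 nuclei, obtained by lysing the cells. Per the labels, all material was root meristem of strain Col-0, grown on vertical plates, with tips cut 150 µm from the end after 7 days, whereas the age tag says 10 days. There were 6 protoplast libraries, labelled as version 2 of the 10x Chromium 3' chemistry, and 3 nuclei libraries, labelled as version 3, and no mutant or treatment is given for any of them. The protoplast libraries are called ctr1, ctr3248V3, ctr4h, ctr914, ical1 and ical32hV3, as deposited, and the sources used here do not explain these names.

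The endodermis is the innermost layer of the ground tissue, lying between the cortex and the pericycle, the outermost layer of the stele. Its cells build the Casparian strip, a band of lignin in the wall that stops solutes from passing between cells, and later coat themselves with suberin. SCR (AT3G54220) is a transcription factor needed for the division that separates endodermis from cortex, MYB36 (AT5G57620) is a transcription factor that switches on the genes of the strip, and CASP1 (AT2G36100) is a membrane protein that marks where the strip is laid down. The tables used here count, for each cell, its unique molecular identifiers (UMIs, tags that mark single captured RNA molecules) and the genes detected, but give no level of any single gene. The authors' name could therefore not be checked against SCR, MYB36 or CASP1, and what follows concerns how common the endodermis was and how much RNA its cells gave. The authors also used the name 11_18_Endocortex, which joins 2 clusters and which the sources used here do not define, so any endodermal cells placed under that name cannot be told apart from the rest of it.

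Libraries held 50723576 to 138202792 UMIs in protoplasts and 16761417 to 23093915 in nuclei. The fewest UMIs in any cell lay between 10002 and 15068 in protoplast libraries and between 1150 and 1211 in nuclei libraries, so the preparations begin at different minima, which can also set how many cells of a type are counted. The fewest detected genes were 1001 in each of the 3 nuclei libraries and lay between 1669 and 2474 in protoplast libraries. What these minima do to the UMIs and genes of a type was not tested. In ical1 each of 1085 cells was listed 2 times, and the first listing was kept. The 2 listings gave different type names to 45 of these cells (4.15%). The endodermis had 5 cells in each listing, 6 in either and 4 in both, and each of the 2 cells that changed was called pericycle in the other listing. Cells under ctr1 carried 2 sets of barcode endings, with 20 endodermis cells among 1660 in set 1 and 6 among 1632 in set 2 (1.20% and 0.368%, Fisher's exact test p = 0.00915, a test that compares these cells and not conditions). No barcode was shared by endodermis cells of 2 libraries, and 2 endodermis barcodes were also used by some cell of another library, against 104 such cases summed over all pairs of libraries. Barcodes of ctr3248V3, ctr4h, ctr914 and ical32hV3 recurred among nuclei in 25, 7, 18 and 10 cases, against 8.36, 5.31, 8.49 and 7.38 expected from one common barcode list, while ctr1 and ical1 had 0 cases against 7.30 and 2.41. The labels give all 6 protoplast libraries the same chemistry, which differs from this division. The labels do not say that the libraries are separate plantings, and the spread that p-values refer to here may be technical.

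The endodermis was rare in both preparations and its share varied widely between libraries of the same preparation. It made up 4.10% of ctr4h (98 cells, Wilson 95% interval 3.37 to 4.97) and 2.01% of ctr914 (77 cells, 1.61 to 2.51). In the other 4 protoplast libraries it was 0.790% of ctr1 (26 cells, 0.540 to 1.15), 0.602% of ical32hV3 (20 cells, 0.390 to 0.927), 0.505% of ctr3248V3 (19 cells, 0.323 to 0.787) and 0.461% of ical1 (5 cells, 0.197 to 1.07). Thus ctr4h and ctr914 supplied 175 of the 245 endodermis protoplasts (71.4%), and the intervals of the other 4 libraries overlapped one another. Among nuclei the endodermis was 3.79% of nuclei 1 (195 nuclei, 3.30 to 4.35), 1.49% of nuclei 2 (68 nuclei, 1.18 to 1.89) and 1.30% of nuclei 3 (70 nuclei, 1.03 to 1.64). The library nuclei 1 supplied 58.6% of endodermis nuclei and stood above the intervals of the other 2. All these intervals cover counting error only. That of ctr1 pools its 2 sets of barcode endings and covers the share of neither set (1.20% and 0.368%).

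**Figure D1:**
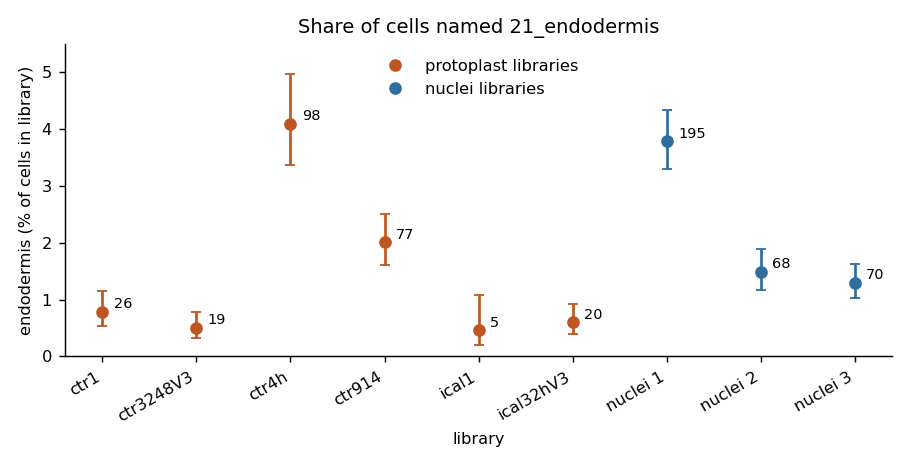
Share of cells named 21_endodermis in each library, in percent, with Wilson 95% intervals as bars and the number of endodermis cells printed beside each point. Among protoplast libraries ctr4h (4.10%) and ctr914 (2.01%) lie above the other 4 (0.461% to 0.790%), and among nuclei libraries nuclei 1 (3.79%) lies above the other 2.

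The share of the endodermis averaged 1.41% ± 1.44 in protoplasts (SD, n = 6) and 2.19% ± 1.39 in nuclei (SD, n = 3). The ranges of the preparations overlapped, since ctr4h exceeded every nuclei library and ctr914 exceeded nuclei 2 and nuclei 3. By mean share the endodermis was the rarest of 17 types in protoplasts, just after 20_Cortex at 1.62% ± 0.631, and rank 14 of 17 in nuclei, between 20_Cortex at 2.38% ± 1.27 and 14_Columella at 1.44% ± 0.543. Its share spanned 8.89-fold across protoplast libraries and 2.92-fold across nuclei libraries. On the scale of log2 odds its SD was 1.26 in protoplasts, rank 3 of 17 types, and 0.86 in nuclei, rank 2 of 17. Protoplasts over nuclei gave a log2 fold of -0.63 (SE 0.70), which did not pass the test (edgeR quasi-likelihood adjusted p = 0.476), while 6 of 17 types, or 35.3%, did. An exact permutation of libraries on log2 odds gave -0.96 for the endodermis (exact permutation adjusted p = 0.351). It called 0 of 17 types, and the smallest unadjusted p it allows is 0.0119. The edgeR value depended on single libraries. The log2 fold was -1.29 without ctr4h (edgeR adjusted p = 0.106) and 0.026 without nuclei 1 (edgeR adjusted p = 0.992). Preparation and labelled chemistry coincide and cannot be told apart by the labels, and with only the 4 protoplast libraries whose barcodes recur among nuclei the log2 fold was -0.29 (edgeR adjusted p = 0.800).

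By share of UMIs the endodermis held 3.44% of ctr4h, 1.18% of ctr914, 0.851% of ctr3248V3, 0.848% of ctr1, 0.515% of ical32hV3 and 0.305% of ical1. In nuclei it held 4.18%, 1.70% and 1.66% of the UMIs of nuclei 1, 2 and 3. So ctr4h and ctr914 were the highest protoplast libraries by UMIs as by cells, and nuclei 1 the highest nuclei library. In each nuclei library the share of UMIs exceeded the share of cells, and in protoplasts it did so in ctr1 and ctr3248V3.

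The neighbouring layers were compared next. The pericycle, which lies against the inner face of the endodermis, made up 12.5% of ctr4h and 8.60% of ctr914, and 1.06%, 0.531%, 0.829% and 0.602% of ctr1, ctr3248V3, ical1 and ical32hV3. In nuclei 1, 2 and 3 it made up 7.81%, 4.10% and 4.04%. The 2 protoplast libraries with most endodermis were therefore also those with most pericycle, and nuclei 1 was highest in both types among nuclei. The 17_Stele type, the inner tissue with the vessels, was also highest among protoplasts in ctr914 (4.05%) and ctr4h (3.47%), with the other 4 between 0.319% and 2.40%, and was 5.01%, 3.68% and 3.35% of nuclei 1, 2 and 3.

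The cortex and the endocortex had other orders among protoplasts. The cortex, the ground tissue layer next to the endodermis, made up 2.55% of ctr1, 2.12% of ical1, 1.80% of ctr4h, 1.11% of ical32hV3, 1.10% of ctr914 and 1.06% of ctr3248V3, against 3.81%, 1.95% and 1.37% of nuclei 1, 2 and 3. The endocortex made up 4.52% of ical1, 3.65% of ctr1, 3.22% of ical32hV3, 2.87% of ctr914, 2.42% of ctr4h and 0.929% of ctr3248V3, against 13.1%, 11.1% and 8.73% of nuclei 1, 2 and 3. So ctr1 and ical1, low in endodermis, were the highest protoplast libraries in cortex, whereas nuclei 1 was the highest nuclei library in all 5 types. Shares within a library sum to a fixed total, so these orders are not independent.

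**Figure D2:**
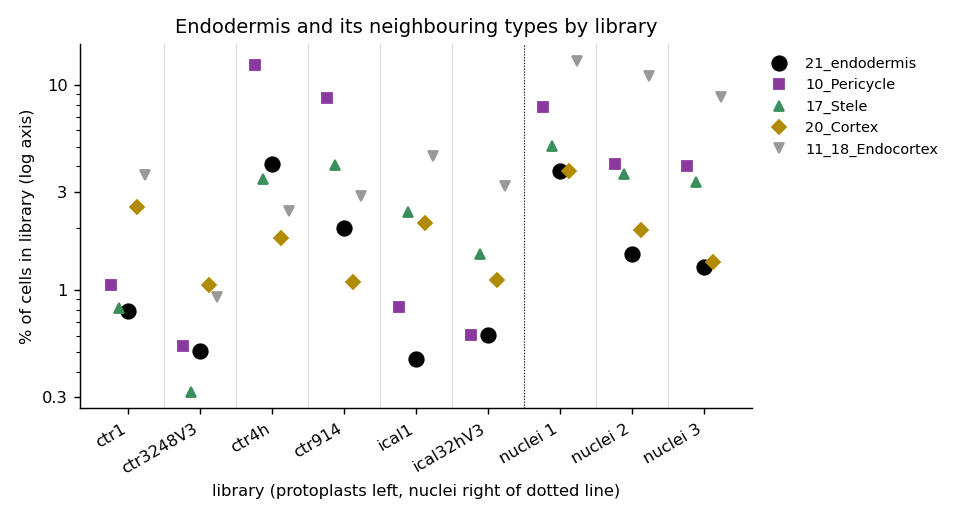
Share of cells in each library (percent, log axis) for the endodermis (black circles) and its 4 neighbouring types, with protoplast libraries left of the dotted line and nuclei libraries right of it. The endodermis and the pericycle are both highest in ctr4h (4.10% and 12.5%) and ctr914 (2.01% and 8.60%) among protoplasts, while the cortex is highest in ctr1 (2.55%).

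Counted per pericycle cell, the endodermis varied less among protoplast libraries than per cell of the ground tissue. There were 0.329 endodermis cells per pericycle cell in ctr4h, 0.235 in ctr914, 0.579 in ical1, 0.746 in ctr1, 0.951 in ctr3248V3 and 1.00 in ical32hV3, with 0.5 added to each count. The ratio was 0.486, 0.365 and 0.323 in nuclei 1, 2 and 3. It was lowest in the 2 protoplast libraries richest in endodermis, and ranged 4.25-fold across protoplast libraries, against 9.68-fold per cortex cell, 15.2-fold per endocortex cell and 7.52-fold per stele cell; these ranges were not tested against each other.

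Per cortex cell there were 2.26 endodermis cells in ctr4h and 1.82 in ctr914, so the endodermis outnumbered the cortex there, and 0.234 to 0.547 in the other 4 protoplast libraries. In nuclei 1, 2 and 3 the ratio was 0.995, 0.765 and 0.946, between these sets. Per endocortex cell the ratio was 1.68 in ctr4h, 0.701 in ctr914, 0.549 in ctr3248V3 and 0.111 to 0.220 in the other 3, against 0.289, 0.136 and 0.150 in nuclei 1, 2 and 3. Protoplasts over nuclei the mean log2 ratios differed by -0.45 per cortex cell, 1.08 per endocortex cell, 0.55 per pericycle cell and 0.40 per stele cell. None passed an exact two-sided permutation test of libraries (adjusted p = 0.595 for each of the 4, unadjusted p from 0.286 to 0.595, n = 6 and 3, smallest p possible 0.0119). Within the ground tissue as a whole the log2 odds of being endodermis were -2.08 ± 1.37 in protoplasts and -2.74 ± 0.51 in nuclei, a difference of 0.67 (exact permutation p = 0.429, n = 6 and 3).

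Endodermis protoplasts gave medians of 19144 to 39278.5 UMIs per cell and endodermis nuclei 2576 to 4004.5. By library the medians were 39278.5 in ctr1, 34192 in ctr3248V3, 30729 in ical1, 20574 in ical32hV3, 19255.5 in ctr4h and 19144 in ctr914, and 2576, 3229.5 and 4004.5 in nuclei 1, 2 and 3. The 2 protoplast libraries with most endodermis thus had the lowest endodermis medians, and nuclei 1 the lowest among nuclei. Other cells of the same libraries had medians of 25184 in ctr1, 17257 in ctr3248V3, 28338 in ical1, 17075 in ical32hV3, 16407 in ctr4h and 28047.5 in ctr914, and 2315, 2794 and 2977 in nuclei 1, 2 and 3. The endodermis median was the higher in 8 of 9 libraries, the exception being ctr914. Median detected genes per endodermis cell were 6345.5 in ctr1, 6101 in ctr3248V3, 6782 in ical1, 4755 in ical32hV3, 4305 in ctr4h and 4690 in ctr914, and 1807, 2195 and 2472.5 in nuclei 1, 2 and 3.

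**Figure D3:**
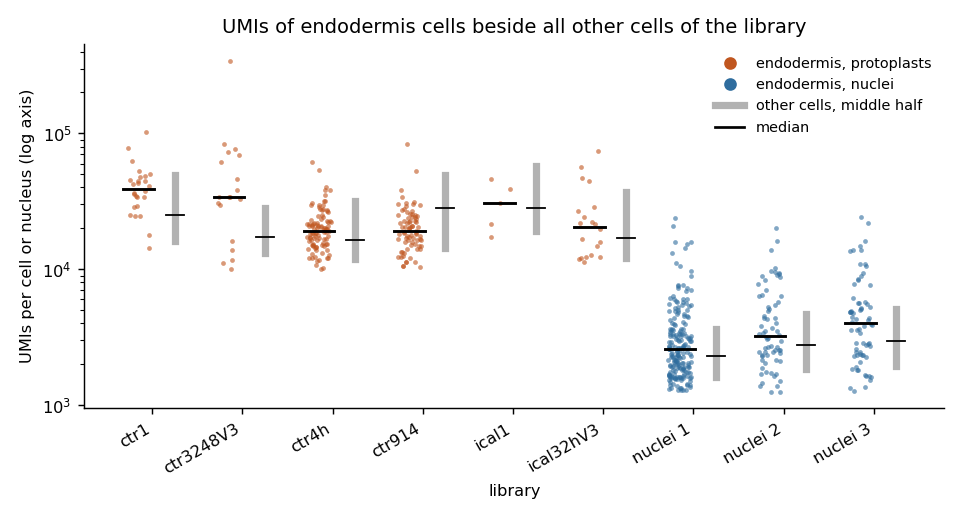
UMIs per cell or nucleus (log axis) in each library, with endodermis cells as points, their median as a black bar, and the interquartile range of all other cells as a grey bar with its median. The endodermis median lies above that of the other cells in 8 of 9 libraries, and below it in ctr914 (19144 against 28047.5).

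Endodermis cells close to the lowest UMI count of their library were counted as well. The share below 1.5 times the library's minimum was 24.9% ± 11.4 of endodermis and 37.4% ± 6.49 of other cells in protoplasts (SD, n = 6), and 16.6% ± 5.32 of endodermis and 24.2% ± 5.04 of other cells in nuclei (SD, n = 3). It was lower for the endodermis in 8 of 9 libraries, the exception being ical1, where it rests on 5 cells. This comparison was not tested. The interquartile range of log2 UMIs among endodermis cells was 0.90 ± 0.39 in protoplasts, against 1.07 ± 0.17 for the median other type (SD, n = 6), and 1.25 ± 0.12 in nuclei, against 1.28 ± 0.17 (SD, n = 3). It was narrower than that of the median type in 5 of 6 protoplast libraries, the exception being ctr3248V3, and in 2 of 3 nuclei libraries. Of those 5, ical1 (0.85 against 0.91) rests on 5 cells and ical32hV3 (1.12 against 1.13) was close to no difference. The spreads were not tested either.

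Because libraries differ in depth, each type was next set against the median type of its own library, in log2 units, using types with at least 10 cells in a library. The 5 endodermis cells of ical1 fell under that minimum, so n is 5 for protoplasts. The endodermis stood 0.59 above the median type in ctr1, 0.29 in ctr3248V3, 0.081 in ical32hV3 and 0.056 in ctr4h, and was itself the median type in ctr914 (0). In nuclei 1, 2 and 3 it stood 0.14, 0.11 and 0.36 above. Relative UMIs averaged 0.20 ± 0.24 in protoplasts and 0.20 ± 0.13 in nuclei. Neither mean passed the test against 0 (limma adjusted p = 0.0757 in protoplasts, where 64.7% of types passed, and 0.248 in nuclei, where 23.5% did). The difference between protoplasts and nuclei was -0.00090 (95% interval -0.34 to 0.34, limma adjusted p = 0.995), while 47.1% of types passed. The endodermis was rank 7 of 17 in protoplasts, between 1_3_G2MphaseCells (0.46) and 16_Undertermided (0.20), and rank 4 in nuclei, between 5_Atrichoblast (0.26) and 10_Pericycle (0.18). Without ctr914 the protoplast mean was 0.25 and passed (limma adjusted p = 0.0276).

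Detected genes of the endodermis relative to the median type averaged 0.019 ± 0.029 in protoplasts (limma adjusted p = 0.780, 64.7% of types passing) and 0.15 ± 0.12 in nuclei (limma adjusted p = 0.0830, 23.5% of types passing). By library the values were 0.052 in ctr4h, 0.041 in ctr1, 0.021 in ctr3248V3, 0 in ctr914 and -0.020 in ical32hV3, against 0.29, 0.094 and 0.072 in nuclei 3, 2 and 1, so all 3 nuclei libraries lay above all protoplast libraries. The difference of -0.13 did not pass (95% interval -0.30 to 0.037, limma adjusted p = 0.197, 23.5% of types passing). In the order of relative genes the endodermis was rank 8 in protoplasts, between 16_Undertermided (0.026) and 8_Initials_QC (-0.0064), and rank 5 in nuclei, between 1_3_G2MphaseCells (0.15) and 11_18_Endocortex (0.077).

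At a given number of UMIs, endodermis protoplasts had slightly fewer detected genes than the median type. This was measured as the residual of log2 genes from a quadratic fit on log2 UMIs over all cells of a library. It averaged -0.053 ± 0.041 in protoplasts (SD, n = 5), a difference in genes of -3.61%, and passed the test (SE 0.015, limma adjusted p = 0.0176). The same test called 11 of 17 types (64.7%) in protoplasts, 5 of them lower (29.4%), so a call here was common among types. The endodermis was rank 15 of 17 in protoplasts, between 10_Pericycle (-0.052, limma adjusted p = 0.0259) and 6_LRC (-0.14). The neighbouring pericycle thus had nearly the same value and passed as well. In nuclei the pericycle stood at -0.056 (limma adjusted p = 0.575). By library, the endodermis values in protoplasts are given next. The values were -0.11 in ctr3248V3, -0.071 in ical32hV3, -0.052 in ctr1, -0.033 in ctr4h and 0 in ctr914, where the endodermis was the median type. The call was lost without ical32hV3 (-0.048, limma adjusted p = 0.0560), without both ical libraries (-0.048, limma adjusted p = 0.0714) and with a linear in place of the quadratic fit (-0.039, limma adjusted p = 0.0950). In nuclei the endodermis mean was -0.012 ± 0.019 (SD, n = 3, limma adjusted p = 0.948), with 0 of 17 types (0%) passing. The difference between protoplasts and nuclei was -0.041 and did not pass (95% interval -0.098 to 0.015, limma adjusted p = 0.270, 5.88% of types passing).

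**Figure D4:**
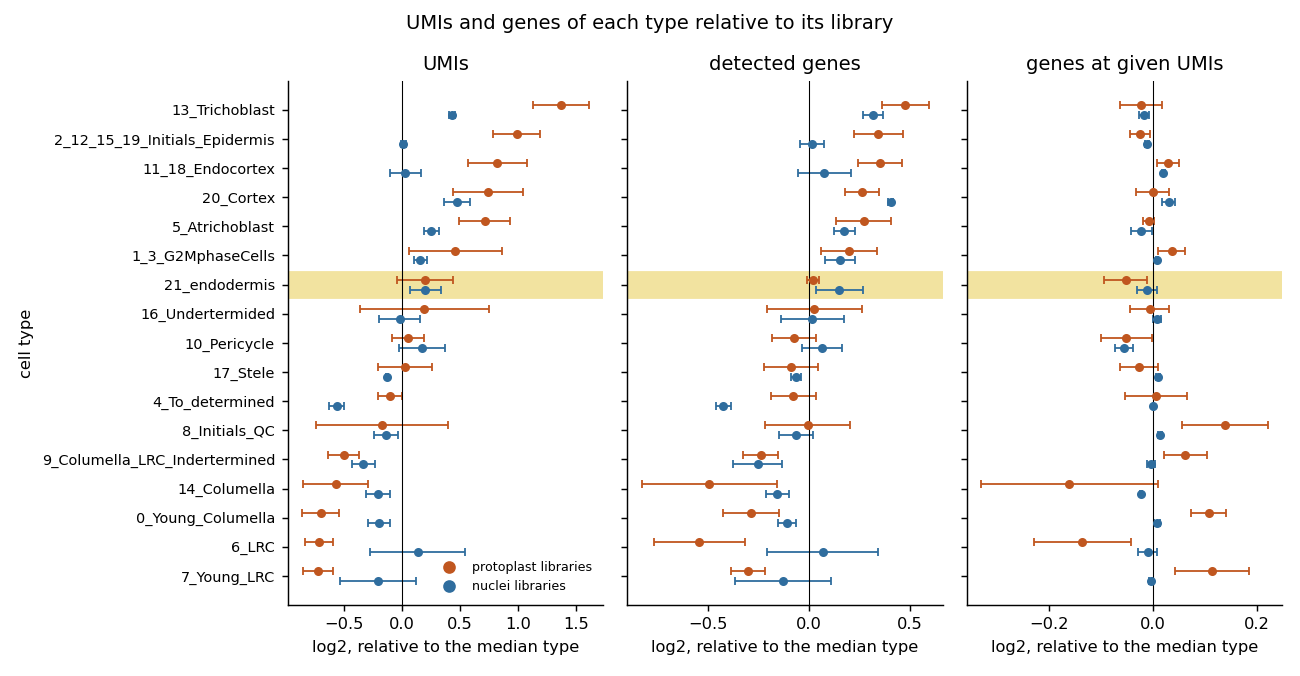
UMIs (left), detected genes (middle) and genes at given UMIs (right) of each type relative to the median type of its library, in log2 units, as means over libraries with SD bars, protoplasts above nuclei in each line and the endodermis shaded. The endodermis lies at 0.20 in UMIs in both preparations, and at -0.053 in protoplasts and -0.012 in nuclei in genes at given UMIs.

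Set directly against its neighbours, the endodermis gave fewer UMIs and genes than the cortex in every library with at least 10 cells of both. The 2 sets of barcode endings of ctr1 were pooled for this, and with ctr1 as 2 libraries the UMI call given below was lost. The median endodermis cell had 0.747 times the UMIs of the median cortex cell, a log2 difference of -0.42 ± 0.32 (SD, n = 8 libraries). The difference was -0.93 in ctr914, -0.78 in ctr3248V3, -0.51 in ical32hV3, -0.17 in ctr1 and -0.16 in ctr4h, and -0.45, -0.36 and -0.0089 in nuclei 1, 2 and 3, so nuclei 3 was close to no difference. An exact sign-flip permutation test over the 8 libraries gave p = 0.00781, the smallest it allows (adjusted p = 0.0313 over 8 such tests). The neighbour differences were chosen after seeing the data, which these p-values do not take into account. In genes the endodermis had 0.836 times the cortex value, a log2 difference of -0.26 ± 0.10, lower in 8 of 8 libraries (exact sign-flip permutation, adjusted p = 0.0313). Leaving out any 1 library raises the smallest p that this test allows, and the adjusted p also depends on the other tests adjusted with it. All remaining libraries stayed negative in each case. The lost and held calls below are therefore no test of whether the cortex difference depends on single libraries. Without ctr3248V3 the stele UMI difference reached the same adjusted p as the cortex. The UMI call was lost without ctr1, ctr4h, ctr914, ical32hV3, nuclei 1, nuclei 2 or nuclei 3 (exact permutation adjusted p = 0.0625 in each case, log2 difference from -0.48 to -0.35), and was held without ctr3248V3 (-0.37, exact permutation adjusted p = 0.0417). The gene call was lost without the same 7 libraries (exact permutation adjusted p = 0.0625 in each case, log2 difference from -0.28 to -0.25) and held without ctr3248V3 (-0.24, exact permutation adjusted p = 0.0417). The cortex itself stood above the median type of its library in UMIs, at 0.74 in protoplasts and 0.47 in nuclei (limma adjusted p = 6.0e-06 and 0.0235). In genes it stood at 0.26 and 0.41 (limma adjusted p = 7.4e-05 and 8.7e-05). Relative UMIs of the endodermis were 0.20 in both preparations. The part of the cortex level in the difference was not tested.

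Against the endocortex the direction differed between preparations. The endodermis minus endocortex difference in UMIs was -0.59 ± 0.38 in protoplasts (SD, n = 5) and 0.17 ± 0.014 in nuclei (SD, n = 3). All 5 protoplast libraries were negative, with -1.14 in ctr914, -0.74 in ctr3248V3, -0.50 in ctr4h, -0.48 in ical32hV3 and -0.11 in ctr1, and all 3 nuclei libraries were positive, with 0.18, 0.16 and 0.17 in nuclei 1, 2 and 3. In genes the difference was -0.35 ± 0.13 in protoplasts and 0.074 ± 0.020 in nuclei, and again the preparations did not overlap. Protoplasts minus nuclei the UMI difference changed by -0.76 (exact permutation p = 0.0536, adjusted p = 0.214) and the gene difference by -0.42 (exact permutation p = 0.0179, the smallest that 56 splits allow, adjusted p = 0.143), so neither passed after adjustment over the 8 comparisons. Relative to the median type of its library, the endocortex stood at 0.82 in UMIs in protoplasts and 0.033 in nuclei (difference 0.79, SE 0.16, limma adjusted p = 0.00070), and its part in the change was not tested.

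Against the inner neighbours no difference passed the test. The endodermis minus pericycle difference was 0.10 ± 0.30 in UMIs and 0.091 ± 0.15 in genes over 8 libraries (exact sign-flip permutation, adjusted p = 0.391 and 0.152). It was positive in UMIs in 5 of 8 libraries, and was 0.70 in ctr1, against 0.089 in ctr3248V3, 0.056 in ctr4h, 0.025 in ctr914 and -0.12 in ical32hV3. In nuclei 1, 2 and 3 it was -0.0025, -0.27 and 0.36. Against the stele the endodermis was 0.23 ± 0.26 higher in UMIs, in 7 of 8 libraries, and 0.12 ± 0.13 higher in genes, in 6 of 8 (exact sign-flip permutation, adjusted p = 0.0781 for both). Without ctr3248V3 the UMI difference passed (0.29, exact permutation adjusted p = 0.0417). Between protoplasts and nuclei the differences from cortex, pericycle and stele changed by -0.24, 0.12 and -0.16 in UMIs (exact permutation adjusted p from 0.686 to 0.833, n = 5 and 3) and by -0.0072, 0.0066 and -0.15 in genes (exact permutation adjusted p from 0.524 to 0.929, n = 5 and 3).

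**Figure D5:**
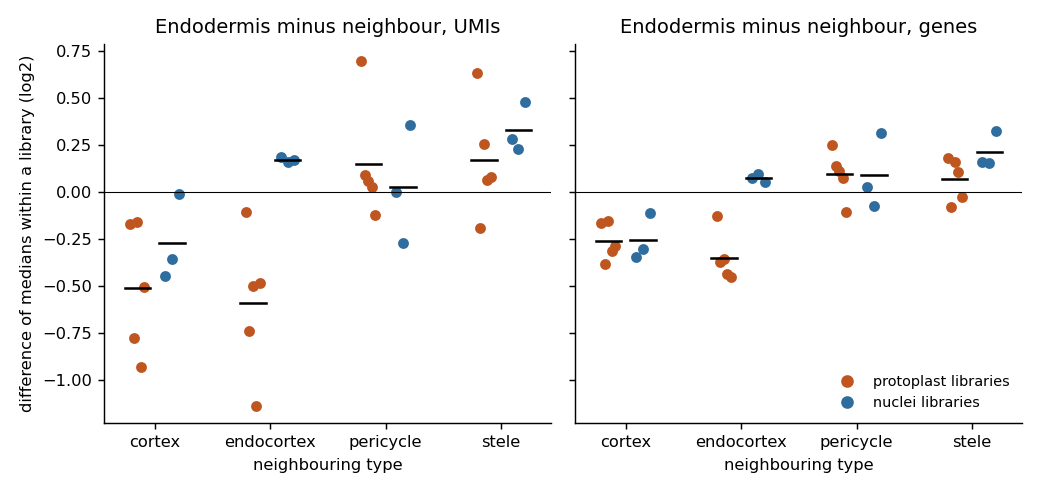
Difference between the median endodermis cell and the median cell of each neighbouring type within a library, in log2 units, for UMIs (left) and detected genes (right), with 1 point per library and the mean as a bar. All 8 libraries lie below 0 against the cortex, and against the endocortex the 5 protoplast libraries lie below 0 and the 3 nuclei libraries above it.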

How the data were processed

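For each cell the authors deposited raw UMI counts and a count of genes detected, with its library, cluster and type name. Seurat 4.0, Cell Ranger 5.0.1 and the build TAIR10 are listed in the submitters' processing notes, and per the file headers cells were clustered at resolution 0.6 after integration. The sources used here give neither cell filters nor doublet treatment. The expression matrices were not used here, so cells could not be thinned to equal depth. Marker names and gene identifiers were taken from the RefSeq gene table.

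Cells per type were tested with edgeR 4.0.16 (quasi-likelihood, robust, all cells as library size). Relative values were tested with limma 3.58.1 (robust eBayes), with Benjamini-Hochberg adjustment over 17 types and a threshold of 0.05. Ratios and neighbour differences went through exact two-sided permutations of libraries (numpy 2.4.6). DESeq2 1.42.0 was an alternative. The edgeR and limma fits were also run on simulated data, with the outcome not given here. The simulated relative values had a single spread over all types and both preparations, so that run is no check of unequal spreads. The library was the replicate throughout. Nuclei libraries were matched to samples by name, and protoplast libraries to their group only, by the deposited preparation column.

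The endodermis, its 4 neighbours and the lists were chosen with earlier results of these data known. The types named are these and the types next above and below the endodermis in each order. Neighbour differences in UMIs and genes, the second listing of ical1 and ctr1 taken as 2 libraries were chosen after seeing the data. A correlation of shares across protoplast libraries is not given, since ctr4h and ctr914 stand apart from the other 4.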

Additional observations from a re-analysis of the deposited data

Results flagged for a closer look

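Among 19 groups of libraries examined for a single far value, 1 had one, and chance alone gives about 1 in 20. In ctr1 the median endodermis cell stood 0.70 (log2) above the median pericycle cell in UMIs, while the other 4 protoplast libraries with enough cells lay between -0.12 and 0.089. Without ctr1 the mean over the remaining libraries was 0.018, against 0.10 with it.

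The difference between endodermis and endocortex ran in opposite directions in the preparations. In UMIs it was below 0 in 5 of 5 protoplast libraries and above 0 in 3 of 3 nuclei libraries, a change of -0.76 (exact permutation p = 0.0536, adjusted p = 0.214, n = 5 and 3). In detected genes the same division of libraries gave a change of -0.42 (exact permutation p = 0.0179, adjusted p = 0.143, n = 5 and 3). Neither passed after adjustment. Relative to the median type, UMIs changed between preparations by -0.00090 for the endodermis and by 0.79 for the endocortex (limma adjusted p = 0.995 and 0.00070). The part of each type in the change was not tested.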

How the results depend on the processing

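Of 543 alternatives over 31 results, 480 kept direction and side of the threshold, 25 lost a call, 4 gained one and 34 turned direction. An alternative that turned was counted only as turned, also where its value passed the threshold. None that turned belonged to a result that had passed its test. Unless stated, the cause was not tested.

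Settings that leave out cells by their UMIs select on the measured quantity, so their values below are no test of UMIs or genes. No call is read from those values, but the counts of alternatives in this section include these settings. Among the calls gained, those in the relative UMI and relative gene contrasts came from leaving out protoplasts under 20000 UMIs. With protoplasts under 20000 UMIs left out, relative UMIs were -0.44 in the contrast and -0.24 in protoplasts, and relative genes -0.31 and -0.16. Against the pericycle, the UMI difference was then -0.076 over libraries and -0.16 between preparations, and the gene difference -0.00098 and -0.14. The cortex gene contrast was 0.019. With the lowest 25% of cells by UMIs left out, relative genes in protoplasts were -0.081, the pericycle differences -0.032 in UMIs and -0.0099 in genes, the cortex gene contrast 0.00057, and the cortex UMI difference -0.40. Without both ical libraries the relative UMI contrast was 0.030, genes at given UMIs in protoplasts -0.048 (call lost) and the cortex UMI difference -0.41. With the 4 protoplast libraries whose barcodes match nuclei, the log2 ratio per cortex cell was 0.19, the pericycle contrasts -0.016 in UMIs and -0.033 in genes, and the cortex UMI difference -0.46. With ctr1 as 2 libraries the cortex UMI difference was -0.39 (call lost) and the cortex gene contrast 0.013. Set 2 of ctr1, with 6 endodermis cells, fell under the minimum of 10 cells, so set 1 alone stood for ctr1. The number of libraries compared was unchanged there, so the smallest p allowed was not raised. With at least 5 cells per type the gene contrasts were 0.015 (cortex) and -0.019 (pericycle). Centring on all cells gave a relative UMI contrast of 0.051, means over cells gave relative genes in protoplasts of -0.0033, and a linear fit gave genes at given UMIs in protoplasts of -0.039 (call lost). The cortex call in genes was lost in 11 of 16 alternatives, as was that in UMIs (exact permutation adjusted p up to 0.0625 in genes and 0.0938 in UMIs). Alternatives with fewer libraries raise the smallest p that this test allows.

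Leaving out 1 library at a time, the share log2 fold ran from -1.29 to 0.026, the relative UMI contrast from -0.097 to 0.076, relative UMIs in protoplasts from 0.11 to 0.25, genes at given UMIs in protoplasts from -0.066 to -0.039, the cortex UMI difference from -0.48 to -0.35 and the stele one from 0.17 to 0.29. The pericycle contrasts ran from -0.029 to 0.29 in UMIs and -0.075 to 0.12 in genes, and the cortex gene contrast from -0.053 to 0.065.

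No paired analysis was possible because the protoplast library names carry no replicate numbers. The 5 endodermis cells of ical1 kept that library out of the comparisons that need at least 10 cells. Its medians, its share near the minimum and its UMI spread were used, and they rest on those 5 cells.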

Other observations

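The place of endodermis cells in the UMI range of their library differed between libraries, which was not tested. When all cells of a library were ranked by UMIs and cut into 4 equal parts, 73.7% of endodermis cells of ctr3248V3 lay in the top part and 0% in the one below it. In ctr914 66.2% lay in the part just below the median, and in ctr1 and ctr4h 61.5% and 59.2% lay in the part just above it. In nuclei 1, 2 and 3 the top part held 26.7%, 32.4% and 32.9%, and the lowest 15.9%, 16.2% and 17.1%.

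Over 100000 UMIs were found in 2 endodermis cells, 1 in ctr1 with 102623 and 1 in ctr3248V3 with 343252, among 825 such cells of all types.

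In ical1 the endodermis was the type whose cells most seldom kept their name between the 2 listings, at 4 of 6 cells (66.7%), against 8 of 10 pericycle cells and 23 of 24 cortex cells.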
